A study of Mus musculus with 35 samples.

Results

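The strength of remodelling was graded among 17 hearts that had all been exposed to transaortic constriction (TAC), an operation that narrows the aorta with a suture and so raises the pressure against which the left ventricle ejects. The members, 17 of 35 libraries, were chosen by their TAC label, and their order by the measured values of 6 genes, which gave each library a remodelling score: the mean standardized level of Tnc, Timp1, Sprr1a and Nppb minus that of Atp2a2 and Ces1d, on the log2(value + 1) scale and after the mean of each genotype had been removed. All other genes were then fitted against that score. A high score therefore means more Tnc, Timp1, Sprr1a and Nppb messenger RNA and less Atp2a2 and Ces1d messenger RNA than the average TAC library of the same genotype, and a score of 0 is that average.

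Messenger RNA of the heart apex was taken from mice of a mixed C57Bl/6/FVB strain, operated on at 6 weeks of age and killed 3 days after surgery. IRS1KO mice carried a floxed Irs1 gene and IRS2KO mice a floxed Irs2 gene, both with alphaMHC-Cre, a Cre recombinase driven in cardiomyocytes. WT mice carried the floxed Irs2 gene without Cre. There were 6 IRS1KO, 6 IRS2KO and 5 WT TAC libraries, and 6 sham libraries of each genotype. Neither a Cre-only group nor floxed Irs1 without Cre was among the groups, the hearts still held all of their non-muscle cells with unrecombined Irs genes, and the apex is a mixture of cell types, so fewer cells of a type and less RNA per cell cannot be told apart. Whether every library stems from its own mouse is not stated in the labels, so the p-values measure the spread between libraries.

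Pressure overload makes cardiomyocytes grow and switch on stress genes such as those of the natriuretic peptides, while fibroblasts lay down matrix and monocytes enter the tissue. The muscle cells meanwhile lower genes of calcium cycling, ion channels and fatty acid oxidation, the main fuel pathway of the adult heart. In the score, Tnc encodes tenascin C, a matrix protein of wounds, Timp1 an inhibitor of matrix metalloproteinases, Sprr1a a small proline-rich protein of stressed cells and Nppb the brain natriuretic peptide. Atp2a2 encodes SERCA2, the pump that returns calcium to the sarcoplasmic reticulum, and Ces1d a carboxylesterase of lipid metabolism.

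The promoters of the 4 raised score genes are shown because the score rests on them. Each window runs from 250 bases before the annotated start to 50 bases after it, in the sense of the gene, from RefSeq on GRCm38.p6. Capitals mark matches, on either strand, to TGANTCA (a site of Fos and Jun dimers, AP-1), CATTCC (MCAT, a site of TEAD factors) and TATAAA (the TATA box), and none of the matches overlap.
Sprr1a, chr3:92485832-92486131, minus strand: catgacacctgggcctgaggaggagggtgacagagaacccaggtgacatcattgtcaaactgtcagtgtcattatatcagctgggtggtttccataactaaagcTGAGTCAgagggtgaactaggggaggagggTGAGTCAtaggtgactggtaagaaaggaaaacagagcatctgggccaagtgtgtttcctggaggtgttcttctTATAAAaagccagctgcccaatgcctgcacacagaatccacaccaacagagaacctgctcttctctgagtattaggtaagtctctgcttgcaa
Nppb, chr4:147985650-147985949, plus strand: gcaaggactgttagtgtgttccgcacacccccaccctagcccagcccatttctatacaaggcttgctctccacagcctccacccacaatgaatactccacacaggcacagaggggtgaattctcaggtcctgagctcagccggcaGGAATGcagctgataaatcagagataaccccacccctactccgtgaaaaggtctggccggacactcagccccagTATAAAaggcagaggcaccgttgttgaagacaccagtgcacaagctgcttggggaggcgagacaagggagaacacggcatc
Tnc, chr4:64046966-64047265, minus strand: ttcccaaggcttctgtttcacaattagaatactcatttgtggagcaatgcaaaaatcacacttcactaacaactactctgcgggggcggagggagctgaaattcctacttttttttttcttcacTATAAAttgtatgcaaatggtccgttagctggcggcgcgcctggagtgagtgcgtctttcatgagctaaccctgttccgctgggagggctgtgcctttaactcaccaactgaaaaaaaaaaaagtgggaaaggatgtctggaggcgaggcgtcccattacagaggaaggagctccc
Timp1, chrX:20869916-20870215, plus strand: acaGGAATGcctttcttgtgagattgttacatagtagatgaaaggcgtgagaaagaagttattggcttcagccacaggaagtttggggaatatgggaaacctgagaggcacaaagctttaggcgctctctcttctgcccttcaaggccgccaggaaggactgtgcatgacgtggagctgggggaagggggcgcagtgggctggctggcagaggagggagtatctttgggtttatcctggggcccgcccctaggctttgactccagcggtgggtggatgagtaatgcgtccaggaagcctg
Sprr1a held 2 AP-1 matches, from base -146 and from base -116, and a TATA box from base -43. Nppb held an MCAT match from base -105 and a TATA box from base -31, Timp1 an MCAT match from base -247, and Tnc a TATA match from base -126. Tnc has a second annotated start, whose window is not printed, and counted from it the same TATA match begins at base -205. Across 32851 promoter windows of the same length, 7.8% held the AP-1 letters, 14.7% the MCAT letters and 13.6% the TATA letters. Among genes whose level rose with the score, 6.9% of 2870 with a window held the AP-1 letters, 13.9% the MCAT letters and 8.8% the TATA letters, against 6.3%, 14.6% and 9.0% of the 10174 tested genes with a window. These letters were thus about as frequent in the genes that rose as in all tested genes.

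The 6 score genes spanned a wide range among TAC libraries, all of it on 1 side of sham. Values are normalized read counts as deposited, on which a library's depth has been scaled out. Sprr1a (chromosome 3, 92483952 to 92485895 on GRCm38) had a median of 3944 and a range of 712 to 10204 in IRS1KO TAC libraries, a median of 6511 and a range of 179 to 9962 in IRS2KO TAC libraries, and 244, 3414, 4565, 1701 and 824 in WT TAC libraries, against 0 to 10.7 in the 18 sham libraries. The WT values are given here and below in the order of replicates 2, 6, 3, 5 and 1, from the lowest score to the highest. Tnc (chromosome 4, 63959785 to 64047015) ran from 3005 to 9096 in IRS1KO, from 685 to 11088 in IRS2KO and from 1093 to 5798 in WT TAC libraries, against 7.94 to 30.0 in sham. Every TAC library thus stood far above every sham library, yet the highest TAC library had 16.2 times the Tnc and 57.0 times the Sprr1a of the lowest.

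Timp1 (chromosome X, 20870166 to 20874735) ranged from 313 to 3730 over the TAC libraries, an 11.9-fold range, against 17.6 to 38.5 in sham. Nppb (chromosome 4, 147985788 to 147987205) ranged from 2790 to 15264, a 5.47-fold range, against 563 to 2353 in sham. Atp2a2 (chromosome 5, 122453513 to 122502225) ranged from 45704 to 137687, against 161934 to 194024 in sham. Ces1d (chromosome 8, 93166068 to 93197838) ranged from 8.33 to 249 in TAC libraries, a 29.9-fold range, against 577 to 1783 in sham. No TAC library overlapped a sham library in any of the 6 genes. These values chose the order of the libraries and are given as a description.

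The score ran from -3.997 to 2.62. At the low end stood IRS2KO TAC replicate 4 (-3.997), WT TAC replicate 2 (-2.57), IRS1KO TAC replicate 5 (-2.53) and IRS2KO TAC replicate 1 (-2.22). IRS1KO TAC replicate 1 (-0.80), WT TAC replicate 6 (-0.16), IRS1KO TAC replicate 3 (0.30), WT TAC replicate 3 (0.58) and IRS2KO TAC replicate 5 (0.60) came next. They were followed by WT TAC replicate 5 (0.71), IRS2KO TAC replicate 3 (0.73), IRS1KO TAC replicate 4 (0.73), IRS1KO TAC replicate 6 (1.08), IRS1KO TAC replicate 2 (1.22) and WT TAC replicate 1 (1.44). IRS2KO TAC replicates 6 (2.27) and 2 (2.62) were highest. All 3 genotypes had a library in the low tail of 4, the gap above that tail was 1.42, and the gap inside it, between its lowest libraries, was 1.43. Removal of the genotype means leaves every genotype with libraries below 0, so a low library in each is favoured by the way the score is made. The SD of the score was 1.44 in IRS1KO, 2.60 in IRS2KO and 1.54 in WT TAC libraries.

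**Figure D1:**
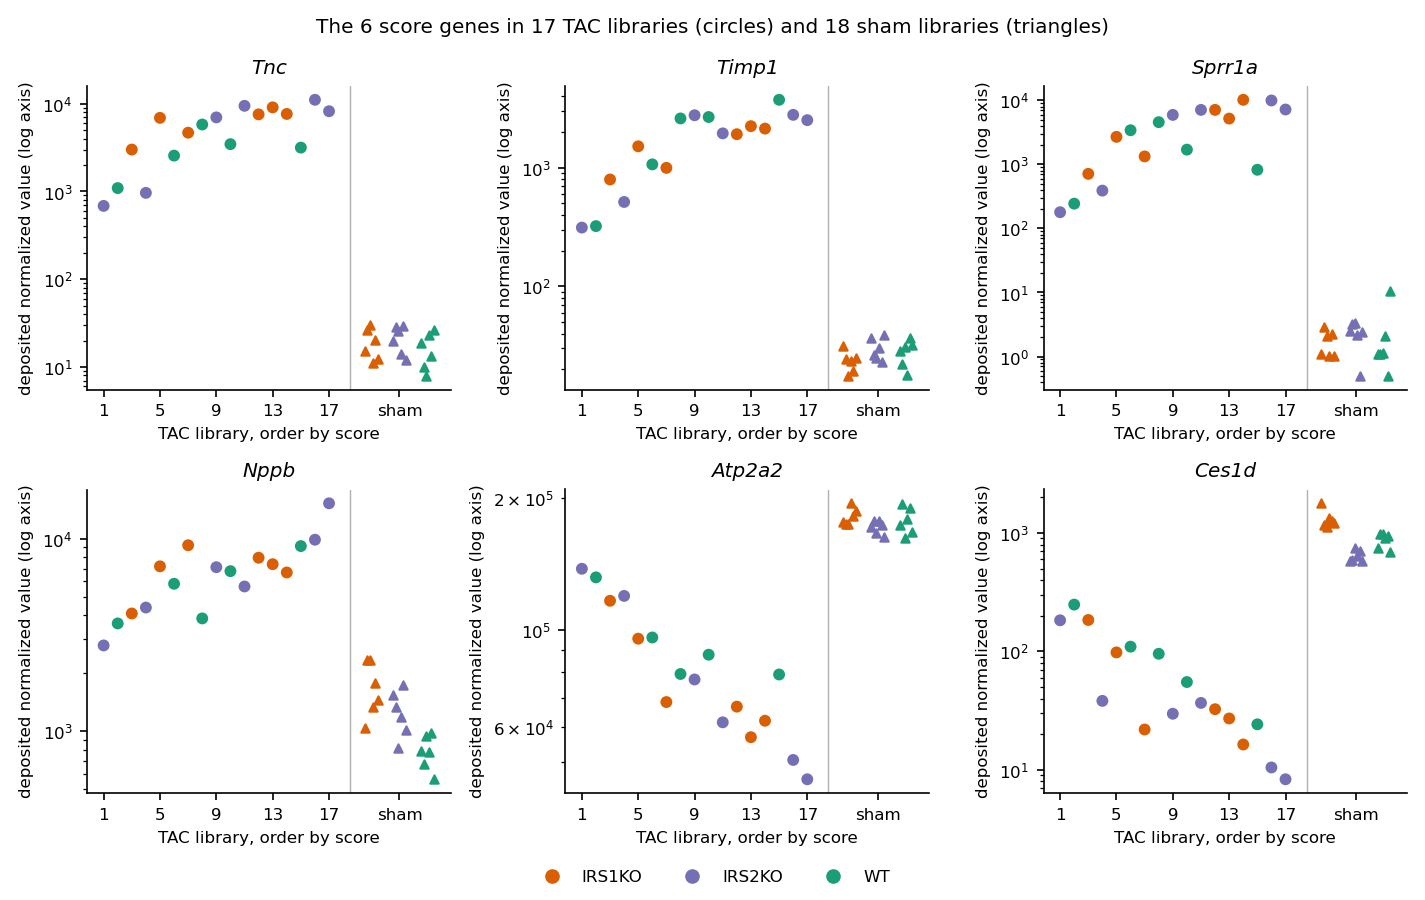
Deposited normalized value (log axis) of the 6 score genes in 17 TAC libraries, left, in order of the remodelling score, and in 18 sham libraries, right, coloured by genotype. Each point is 1 library and a value of 0 is drawn at 0.5. Tnc spans 685 to 11088 in TAC and 7.94 to 30.0 in sham libraries.

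The 6 genes did not follow each other equally closely. After removal of the genotype means, Tnc and Sprr1a had a Pearson r of 0.93 and Tnc and Timp1 one of 0.90 over the 17 libraries, whereas Sprr1a and Nppb had 0.60 and Sprr1a and Ces1d -0.64. Libraries of 1 genotype share mice of the same line, and the 6 genes were picked to move together, so these values are a description. WT TAC replicate 1 had the highest Timp1 of any TAC library (3730) and the highest Nppb of the 5 WT TAC libraries (9152), but its Sprr1a was 824, the second lowest of the 5, and its Tnc 3161.

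Group means of the score genes, which the score does not use, were compared between genotypes. In IRS1KO TAC hearts minus WT TAC hearts, Tnc differed by 1.11 ± 0.54 (log2 fold change ± SE, limma, adjusted p = 0.232) and Sprr1a by 1.17 ± 0.85 (adjusted p = 0.453). In IRS2KO minus WT TAC hearts, Ces1d differed by -1.41 ± 0.55 (limma, adjusted p = 0.721). None of the 6 genes passed an adjusted p of 0.05 in IRS1KO minus WT, IRS2KO minus WT or IRS1KO minus IRS2KO (limma, over all 13695 genes), with 1, 1 and 0 of the 6 at an unadjusted p under 0.05, and edgeR called 0 in each as well.

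Depth did not follow the score. The TAC libraries held between 11707111 and 14609467 reads on genes, which had a Pearson r of 0.01 with the score (Spearman rho 0.07, permutation p = 0.974 for r and 0.782 for rho, 100000 permutations within genotype, two-sided). The genotypes differed in sign, with r = 0.37 in IRS1KO, 0.14 in IRS2KO and -0.67 in WT TAC libraries. For reads r was 0.37 without the 2 libraries farthest from the median score (permutation p = 0.186). It was 0.43 without the 4 of lowest score (permutation p = 0.185). Between 19269 and 20803 genes were detected per library (r = 0.60, rho = 0.59, permutation p = 0.0287 and 0.0309, adjusted over 4 measures 0.0383 and 0.0413), and without the 2 libraries farthest from the median score r was 0.52 (permutation p = 0.0616). Within genotypes r was 0.86 in IRS1KO, 0.71 in IRS2KO and 0.14 in WT TAC libraries.

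IRS1KO TAC replicate 5, 1 of the 4 libraries of low score, stood apart from its group. Its Irs1, the targeted gene, was 80.3, whereas the other 5 IRS1KO TAC libraries had 0 to 26.7, IRS2KO TAC libraries 146 to 343 and WT TAC libraries 135 to 221. Its Trim12a was 78.3, whereas the other 5 IRS1KO TAC libraries had 0 to 0.971 and the WT TAC libraries 87.9 to 178. Irs2 was 78.6 to 196 in IRS2KO TAC libraries, which overlapped the 129.8 to 303 of WT TAC libraries. Neither targeted gene followed the score: the slope of Irs1 was -0.13 ± 0.17 and that of Irs2 0.09 ± 0.08 log2 units per unit of score (SE, limma, adjusted p = 0.537 and 0.413).

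The size of the whole response to TAC rose with the score. Its size in a library was the slope, over genes called between TAC and sham, of that library's difference from its own sham mean on the TAC minus sham difference of the other 2 genotypes, without the 6 score genes, so that 1 means a response as large as theirs. It was 0.480 and 0.470 in the libraries of lowest score, IRS2KO TAC replicate 4 and WT TAC replicate 2, 0.689 and 0.722 in IRS2KO TAC replicate 1 and IRS1KO TAC replicate 5, and 1.28 in both libraries of highest score. The remaining 11 libraries lay between 0.905 and 1.26. Response size and score had r = 0.96 and rho = 0.89 (permutation p = 1e-05, the smallest that the permutations can give, and 0.00012; adjusted 4e-05 and 0.00046). Within genotypes r was 0.91 in IRS1KO, 0.99 in IRS2KO and 0.94 in WT TAC libraries. Without the 2 libraries farthest from the median r was 0.93 (permutation p = 0.00016), and without the 4 lowest it was 0.84 (permutation p = 0.00199). The score genes differ between TAC and sham, and the measured genes were called with these same libraries. The choice of genes thus favoured a link, and these p-values are no independent evidence of one.

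Messenger RNA of the mitochondrial genome took a smaller share of the reads where the score was high. That share was 28.0% and 27.0% in the libraries of lowest score, and 18.1% and 15.6% in those of highest score. Share and score had r = -0.92 and rho = -0.85 (permutation p = 4e-05 and 0.00023, adjusted 8e-05 and 0.00046), with r = -0.93 in IRS1KO, -0.96 in IRS2KO and -0.78 in WT TAC libraries. Without the 2 libraries farthest from the median r was -0.87 (permutation p = 0.00115), and without the 4 lowest -0.72 (permutation p = 0.0128).

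**Figure D2:**
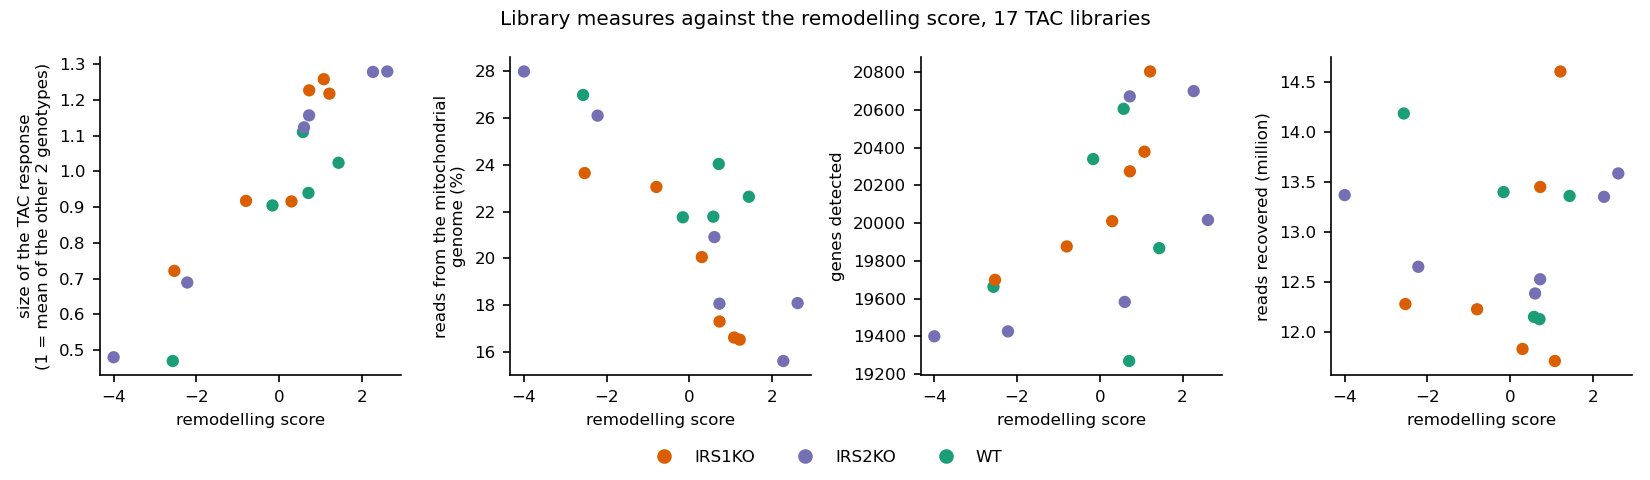
Size of the TAC response, share of reads from the mitochondrial genome (%), genes detected and reads recovered (in units given on the axis) against the remodelling score, 1 point for each of 17 TAC libraries, coloured by genotype. Response size climbs to 1.28 and the mitochondrial share falls to 15.6% at high scores, while reads show no trend over the 17 libraries together.

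Gene by gene, the score was matched by a large part of the transcriptome. Of 13689 genes tested (limma on log2(value + 1), a mean for each genotype and a slope on the score, adjusted p under 0.05), 3758 rose with the score (27.5%) and 3413 fell (24.9%). The median slope over all tested genes was 0.00 log2 units per unit of score. Slopes had the same sign in the 3 genotypes fitted alone for 3539 of the rising and 3262 of the falling genes. These genes were called with the same 17 libraries, which favours such agreement, so both counts are a description. The score had a range of 6.61, and 655 genes had a slope of at least 0.25 and 379 one of at most -0.25. Without IRS1KO TAC replicate 5 the counts were 3504 and 3148. Far fewer genes passed without the low tail: without the 4 libraries of lowest score 272 genes rose (1.99%) and 395 fell (2.89%), of which 266 and 391 were also called with all libraries, while the slope kept its sign in 3624 of the 3758 and 3310 of the 3413. Scaling each library to the same total in place of the deposited scaling moved the median slope by 0.06 per unit, or 0.38 over the range of the score, and gave 6699 rising and 1683 falling genes, so 79.9% of calls rose in place of 52.4%.

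No gene passed in sham hearts. The same 6-gene score computed on the 18 sham libraries was matched by 0 of 13689 genes (0.0%) in limma and 0 in edgeR, with 873 genes at an unadjusted p under 0.05. Sprr1a was near 0 in sham, so its part of that score rests on few reads.

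Cardiac stress genes rose with the score only in part. Of 15 tested members of a list of stress and fetal genes, 10 rose and 0 fell, with a median slope of 0.21. Among all tested genes 27.5% rose and 24.9% fell, and the counts of every list below stand against these shares. Without the 4 libraries of lowest score the shares were 1.99% and 2.89%. Gdf15, a stress-induced cytokine of the TGF-beta family, had a median of 87.5 and a range of 34.7 to 168 in IRS1KO TAC libraries, a median of 118 and a range of 7.13 to 306 in IRS2KO, and 12.5, 76.4, 71.2, 105 and 122 in WT, against 0 to 11.5 in sham. The lowest IRS2KO and WT libraries lay within or just above the sham range, and the highest value belonged to IRS2KO TAC replicate 6. Its slope was 0.76 ± 0.05 per unit (SE, limma, adjusted p = 2.71e-08), 32.0-fold over the range of the score. Rtn4, a reticulon of the endoplasmic reticulum, rose by 0.46 ± 0.03, Actn1, a non-muscle actinin, by 0.44 ± 0.04 and Uck2, a uridine-cytidine kinase, by 0.33 ± 0.03 per unit (adjusted p of at most 1.18e-07).

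Of the 5 stress genes that did not pass, Myh7, the slow myosin heavy chain, Acta1, skeletal actin, Ankrd1, a titin-binding ankyrin-repeat protein, and Hspb7, a small heat shock protein, were higher in TAC than in sham hearts, by 1.41, 1.85, 2.06 and 0.64 on the log2 scale (limma, adjusted p of at most 1.98e-06), and Mt1, a metallothionein, differed by 0.17 (adjusted p = 0.251). Here and below, members named as exceptions to their list, and Igf1 and Pik3r1, were named after their values were seen. Myh7 had 2696 to 25995 in IRS1KO, 4052 to 17778 in IRS2KO, and 8634, 5621, 3004, 14121 and 12858 in WT TAC libraries, against 1664 to 4717 in sham. Its highest values belonged to IRS1KO TAC replicate 3, of middle score, and IRS2KO TAC replicate 2, of highest score, and the slope was 0.01 ± 0.12 (adjusted p = 0.948). Ankrd1 had a slope of 0.06 ± 0.03 (adjusted p = 0.156) and Acta1 of -0.05 ± 0.05 (adjusted p = 0.413).

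Nppa, the atrial natriuretic peptide gene and chromosomal neighbour of Nppb, followed the score weakly. It had a median of 20703 and a range of 16311 to 23883 in IRS1KO TAC libraries, a median of 12654 and a range of 4420 to 14886 in IRS2KO, and 6235, 12825, 6184, 6913 and 10102 in WT, against 384 to 4936 in sham. All IRS1KO TAC libraries thus lay above all IRS2KO and WT TAC libraries, whatever their score. The same order held without TAC: IRS1KO sham libraries had 3125 to 4936, IRS2KO sham libraries 553 to 1184 and WT sham libraries 384 to 779. The slope was 0.15 ± 0.05 (limma, adjusted p = 0.0121), with -0.04 in IRS1KO, 0.23 in IRS2KO and 0.10 in WT, and it was -0.056 without the 4 libraries of lowest score (adjusted p = 0.634).

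Matrix genes rose together. Among 30 genes of collagens and their cross-linking 27 rose and 0 fell, with a median slope of 0.21, and the 3 that did not pass were Col6a1, Col6a2 and Col14a1, with slopes of 0.04, 0.05 and 0.09. P4ha3, a prolyl hydroxylase subunit, had a slope of 0.55 ± 0.06, Loxl4, a lysyl oxidase-like enzyme, 0.37 ± 0.03, and Col11a1, a fibrillar collagen chain, 0.55 ± 0.12 (SE, limma, adjusted p of at most 0.00105). Col11a1 differed by genotype as well: it had 57.5 to 558 in IRS1KO, 5.09 to 154 in IRS2KO, and 16.3, 66.7, 64.9, 16.3 and 14.4 in WT TAC libraries, and its slope was 0.80, 0.61 and 0.06 in these genotypes. Without the 4 lowest libraries 1 of the 30 rose and 0 fell, against 1.99% and 2.89% of all tested genes.

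Of 15 tested matricellular genes, which encode signalling proteins of the matrix, 9 rose, and Ccn3 and Sparcl1 fell. Thbs1, thrombospondin 1, had a median of 2349 and a range of 587 to 2687 in IRS1KO TAC libraries, a median of 2750 and a range of 468 to 3643 in IRS2KO, and 454, 1575, 2239, 2141 and 2409 in WT, against 40.9 to 119 in sham. The 4 libraries of low score, at 454 to 587, were well below the remaining 13, at 1575 to 3643. Its slope was 0.53 ± 0.05 (adjusted p = 2.39e-07), and 0.13 without those 4 (adjusted p = 0.0286). Ccn2, connective tissue growth factor, had the same shape, with a slope of 0.35 ± 0.03 (adjusted p = 8.82e-08) and 0.07 without the 4 lowest (adjusted p = 0.291).

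Proteases and their inhibitors were mixed, with 12 of 21 rising and 4 falling, against 27.5% and 24.9% of all tested genes. Adamts4, an aggrecan-cleaving protease, rose by 0.49 ± 0.04 per unit and Adam12, a membrane protease, by 0.48 ± 0.04 (adjusted p of at most 1.04e-07). The falling members were Timp4, the inhibitor abundant in heart muscle, with -0.35, Timp3, Mmp2 and Adamts5. Of 27 genes of the TGF-beta and activin pathway 17 rose and 4 fell. Tgfb2, a ligand, rose by 0.37 ± 0.03 and Fstl3, a secreted inhibitor of activin, by 0.34 ± 0.03 per unit (adjusted p = 4.19e-07 and 3e-08), and Bmp7, a ligand of the bone morphogenetic branch, fell by 0.37.

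Resting fibroblast markers went the other way: of 15 tested, 9 fell with the score and 2, Mfap5 and Col15a1, rose. In TAC against sham, 6 of the 15 were higher and 6 lower. Without the 4 libraries of lowest score 2 fell and 0 rose. Scara5, a ferritin receptor of resting fibroblasts, had a median of 47.1 and a range of 31.7 to 115 in IRS1KO TAC libraries, a median of 64.2 and a range of 27.5 to 227 in IRS2KO, and 394, 108, 125, 148 and 108 in WT, against 286 to 489 in sham. The WT library of lowest score lay inside the sham range. Its slope was -0.49 ± 0.04 (limma, adjusted p = 1.84e-07), and Gsn, gelsolin, had -0.32 ± 0.04 (adjusted p = 5.94e-06). Of 5 defining markers of fibroblasts, Dpt, Dcn and Lum fell, while Pdgfra (adjusted p = 0.84) and Tcf21 (adjusted p = 0.497) did not pass. Lum was still above sham in every TAC library (1021 to 1604 against 596 to 857), whereas the TAC ranges of Dpt and Dcn overlapped those of sham.

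Slopes did not pass for some genes that were higher in TAC than in sham hearts. Mfap4, a microfibril protein, had a median of 850.4 and a range of 607 to 1239 in IRS1KO TAC libraries, a median of 845 and a range of 559.9 to 1192 in IRS2KO, and 691, 977, 673, 387 and 368 in WT, against 82.6 to 256 in sham. The library of lowest score had the least of its genotype, IRS2KO, at 559.9, and that of highest score had 628. In WT the lowest values, 387 and 368, belonged to the libraries of highest score, so the genotypes were not alike. Its TAC minus sham difference was 2.08 (log2, adjusted p = 3.87e-15) and its slope 0.01 ± 0.06 (adjusted p = 0.881). Svep1, a large adhesion protein, had slopes near 0 likewise (0.00 ± 0.03, adjusted p = 0.921), as did Ccn5, a CCN family protein (0.00 ± 0.04, adjusted p = 0.976), and Fgl2, a fibrinogen-like protein (0.02 ± 0.04, adjusted p = 0.609), with TAC minus sham differences of 1.78, 1.87 and 1.78.

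The smallest p among rising genes was that of Itga5, which is described with 4 others of small p. Itga5, the fibronectin receptor subunit alpha 5, had 1637 to 5279 in IRS1KO, 1028 to 5826 in IRS2KO, and 1340, 2250, 2696, 3211 and 3184 in WT TAC libraries, against 707 to 1004 in sham. In each genotype the library of lowest score had the least. Its slope was 0.36 ± 0.02 (limma, adjusted p = 3.53e-09), with 0.39 in IRS1KO, 0.37 in IRS2KO and 0.33 in WT, and it still rose without the 4 lowest libraries (0.20, adjusted p = 0.00656). Msn, moesin, had 0.28 ± 0.02, Tubb2a, a beta tubulin, 0.29 ± 0.02, Efhd2, an actin-binding protein, 0.38 ± 0.02 and Anxa2, annexin A2, 0.31 ± 0.02 per unit (adjusted p of at most 1.65e-08).

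**Figure D3:**
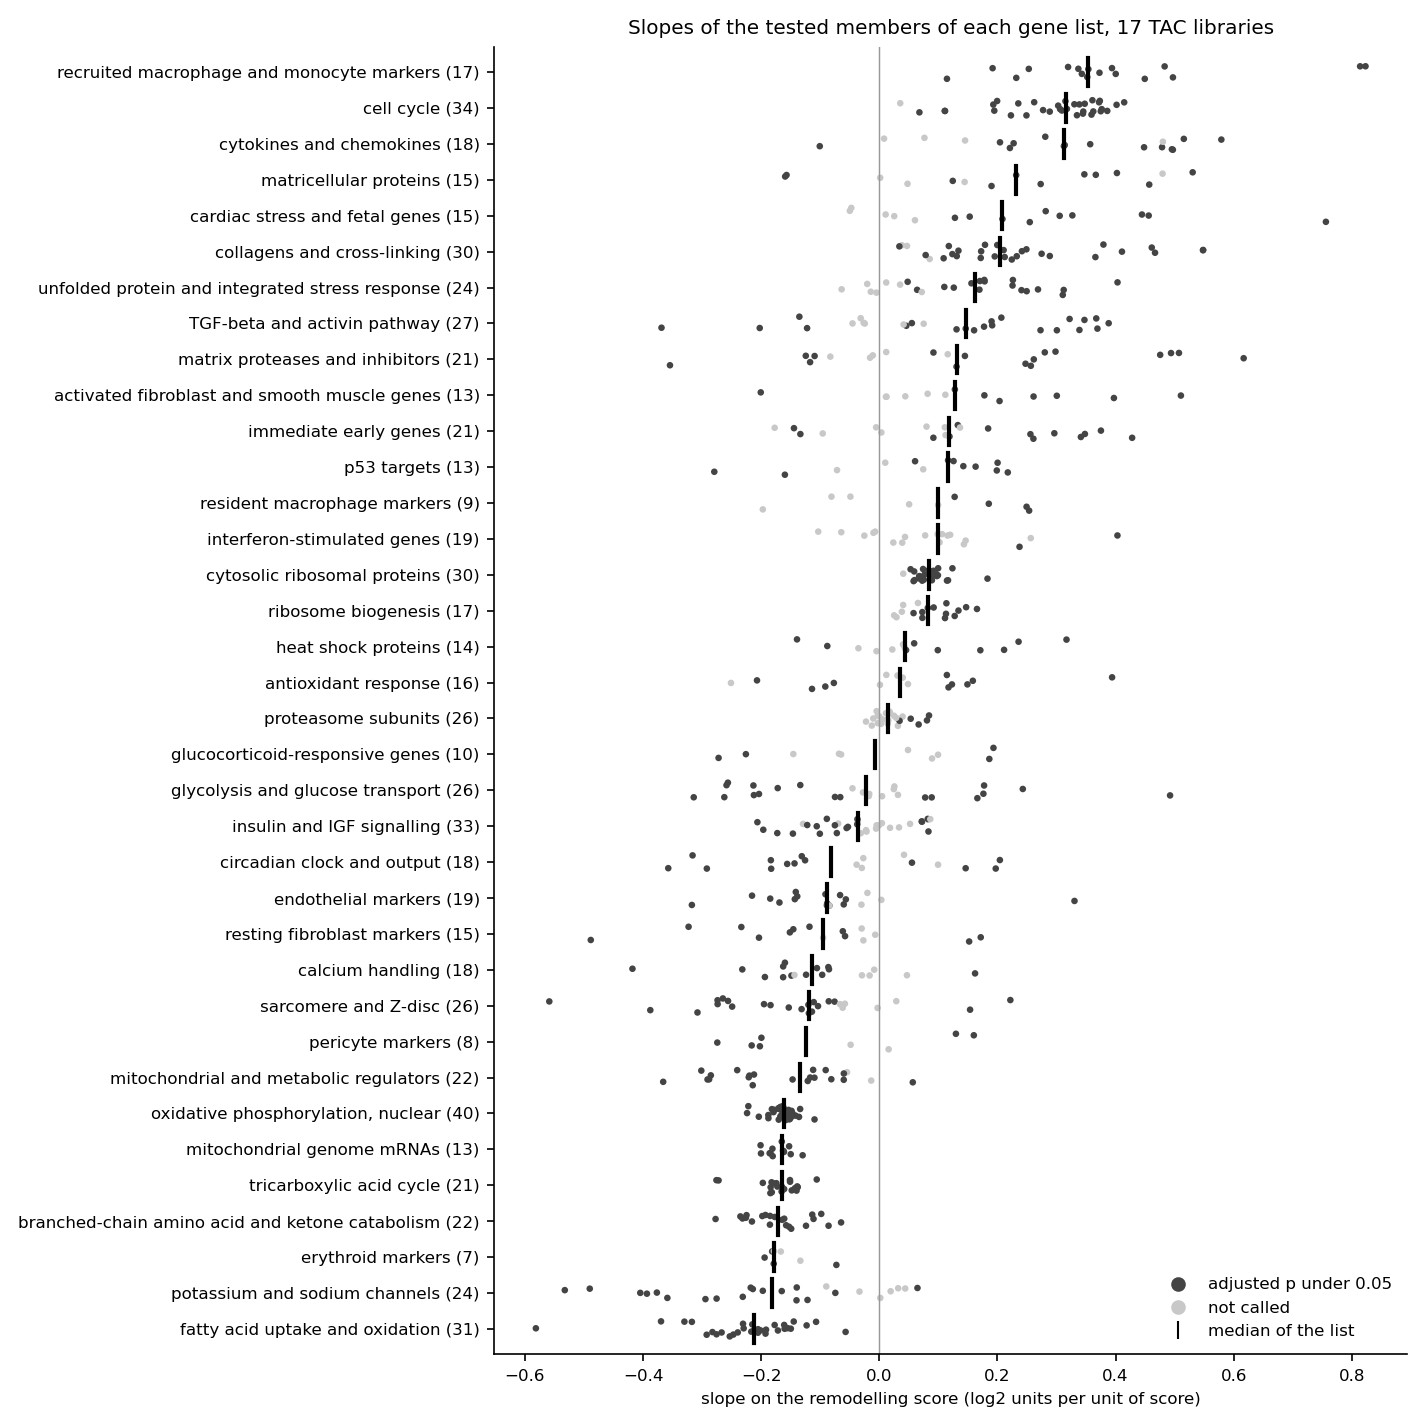
Slope on the remodelling score (log2 units per unit of score) of each tested member of the gene lists with at least 5 tested genes, 17 TAC libraries, with the number tested in brackets. Dark points have an adjusted p under 0.05, grey points do not, and bars are list medians, from 0.35 for recruited macrophage and monocyte markers to -0.21 for fatty acid uptake and oxidation.

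In the list of recruited macrophage and monocyte markers all 17 tested genes rose, with a median slope of 0.35. Adgre1, Csf1r, Cd68, Ccr2 and Lyz2, used below as markers of macrophages as a whole, belong to it. The list thus does not separate recruited cells from other macrophages. Chil3, a chitinase-like protein of monocytes and alternatively activated macrophages, had a median of 129 and a range of 43.6 to 318 in IRS1KO TAC libraries, a median of 109 and a range of 10.2 to 217 in IRS2KO, and 4.80, 27.2, 269, 147 and 329 in WT, against 0 to 4.31 in sham. The libraries of lowest score in IRS2KO and WT were the nearest to sham. Its slope was 0.82 ± 0.12 (limma, adjusted p = 3.72e-05), and that of Arg1, arginase 1, 0.81 ± 0.18 (adjusted p = 0.00125). Lgals3, galectin 3, had 0.50 ± 0.08, Itgam, an integrin of myeloid cells, 0.39 ± 0.07 and Cd68, a lysosomal glycoprotein of macrophages, 0.34 ± 0.06 (adjusted p of at most 0.000214). The slopes were steep in WT, where Chil3 had 1.53 and Arg1 1.55, against 0.60 and 0.10 in IRS1KO, but neither difference between genotypes passed. None of the 17 passed without the 4 lowest libraries.

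The summed level of 5 defining macrophage markers (Adgre1, Csf1r, Cd68, Ccr2 and Lyz2) ran from 4331 to 16565 over the TAC libraries and from 2166 to 3065 in sham, and all 5 rose with the score. Of 9 markers of resident macrophages 4 rose and 0 fell, against 27.5% and 24.9% of all tested genes. Among the 4 was Mrc1, the mannose receptor, with 0.19 ± 0.03 (limma, adjusted p = 2.03e-05). All 3 neutrophil markers that were tested rose. The summed level of S100a8, S100a9 and Csf3r, defining neutrophil genes, ran from 29.5 to 382 in TAC and from 7.72 to 34.5 in sham libraries. The defining markers Cd3e, Nkg7, Cd79a and Ms4a1 of T, NK and B cells were near 0, none above 8.76 in a TAC library. The part of changing cell numbers in these results was not tested.

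Cytokines and chemokines rose in 13 of 18 cases and only Cxcl12 fell. Ccl2, which attracts monocytes, had a slope of 0.58 ± 0.14 (adjusted p = 0.00217), and the interleukin-6 family ligands Lif and Clcf1 had 0.50 ± 0.07 and 0.52 ± 0.08 (adjusted p of at most 3.08e-05). Il1rn, the interleukin-1 receptor antagonist, and Spp1, osteopontin, were among the genes with the widest scatter around the score. Il1rn had 16.5 to 65.8 in IRS1KO, 18.4 to 206 in IRS2KO, and 3.84, 47.4, 707, 247 and 491 in WT TAC libraries, against 0 to 5.18 in sham. The 3 highest WT values were thus above every IRS1KO and IRS2KO TAC library, and the slope did not pass (0.48 ± 0.20, adjusted p = 0.0521), nor did that of Spp1 (0.48 ± 0.21, adjusted p = 0.0756). Of 19 interferon-stimulated genes, Oas3 and Oas1a, which make oligoadenylates, rose and 0 fell, against 27.5% and 24.9% of all tested genes. The median slope of the list was 0.10, and 12 of the 19 were higher in TAC than in sham. Scaling to the same total gave 7 rising and 0 falling.

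Of 34 cell cycle genes 33 rose and 0 fell, Ccnd1, cyclin D1, being the member that did not pass. Rrm2, the small subunit of ribonucleotide reductase, had a median of 150.2 and a range of 97.1 to 227 in IRS1KO TAC libraries, a median of 179 and a range of 43.8 to 262 in IRS2KO, and 45.1, 93.9, 187, 137 and 161 in WT, against 14.3 to 41.0 in sham. The lowest libraries of IRS2KO and WT lay just above the sham range. Its slope was 0.39 ± 0.03 (limma, adjusted p = 1.31e-07), that of Aurka, a mitotic kinase, 0.37 ± 0.04 and that of Birc5, survivin, 0.37 ± 0.04. Without the 4 lowest libraries 9 of the 34 rose, Rrm2 and Aurka among them, against 1.99% of all tested genes.

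Protein synthesis and folding genes rose by small amounts. Of 30 genes of cytosolic ribosomal proteins 29 rose, with a median slope of 0.08, and Rps2 did not pass. Rpl3 had 0.18 ± 0.02 (adjusted p = 3.86e-06), whereas Rpl3l, its paralogue in striated muscle, fell by 0.48 per unit (adjusted p = 1.47e-07). Genes of the unfolded protein and integrated stress responses rose in 17 of 24 cases and 0 fell, against 27.5% and 24.9% of all tested genes. Mthfd2, a mitochondrial folate enzyme induced by that response, had 0.31 ± 0.03 and Xbp1, a transcription factor of the unfolded protein response, 0.18 ± 0.02 (adjusted p of at most 3.85e-07). Of 26 proteasome subunits 5 rose and 0 fell, against 27.5% and 24.9% of all tested genes. All 26 rose when each library was scaled to the same total, as did 6699 of all 13689 tested genes.

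Of 18 tested calcium handling genes 12 fell, and Fkbp1b, a ryanodine receptor partner, rose, with a median slope of -0.11. With the same total per library 8 fell and 4 rose, and the median was -0.05. Hrc, the histidine-rich calcium-binding protein of the sarcoplasmic reticulum, had a median of 2153 and a range of 1236 to 5002 in IRS1KO TAC libraries, a median of 2626 and a range of 1175 to 8324 in IRS2KO, and 7813, 4351, 2928, 4755 and 3554 in WT, against 10921 to 14643 in sham. All TAC libraries lay below all sham libraries, those of low score the least so. Its slope was -0.42 ± 0.04 (limma, adjusted p = 1.39e-07), and Pln, phospholamban, the inhibitor of SERCA2, had -0.23 ± 0.02 (adjusted p = 8.75e-07). Both fell without the 4 lowest libraries as well (adjusted p = 0.00651 and 0.0218).

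Potassium and sodium channel genes fell in 17 of 24 cases, with a median slope of -0.18, and in 15 of 24 with the same total per library. Kcnip2 encodes an accessory subunit of the Kv4 channels, which carry the transient outward current. In IRS1KO TAC libraries it had a median of 480.1 and a range of 212 to 1258, in IRS2KO 465 and 193 to 1365. WT TAC libraries had 1411, 889, 566, 728 and 451, against 2005 to 3434 in sham. All TAC libraries lay below all sham libraries, and in each genotype the library of lowest score had the highest value. The slope was -0.49 ± 0.05 (adjusted p = 1.55e-06), and -0.46 without the 4 lowest libraries (adjusted p = 0.000643). Kcnj2, the inward rectifier Kir2.1, had -0.38 ± 0.03 (adjusted p = 2.35e-07), and Abcc9, the sulfonylurea receptor subunit that is also a pericyte marker, -0.27 ± 0.02 (adjusted p = 2.2e-08).

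Of 26 sarcomere and Z-disc genes 19 fell, and Des, desmin, and Cryab, a small heat shock protein, rose; 13 fell and 4 rose with the same total per library. Myh6, the fast myosin heavy chain of the adult mouse heart, had 118376 to 275778 in IRS1KO, 112022 to 359025 in IRS2KO, and 355128, 234059, 175373, 185158 and 171725 in WT TAC libraries, against 347300 to 413670 in sham. The lowest libraries of IRS2KO and WT reached the sham range, and the slope was -0.27 ± 0.03 (adjusted p = 3.46e-07). Mylk4, a myosin light chain kinase, fell by 0.56 per unit (adjusted p = 1.21e-06). The cardiomyocyte markers did not move as 1 block, for Actc1, cardiac actin, had a slope of 0.00 (adjusted p = 0.938). The sum of Atp2a2, Myh6, Tnnt2, Actc1, Ryr2 and Myl2 ran from 395760 to 852390 in TAC and from 862610 to 969630 in sham. Atp2a2 is a score gene, so part of this sum set the order of the libraries, and the sum is a description.

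Genes of energy metabolism fell together. All 31 genes of fatty acid uptake and oxidation fell, with a median slope of -0.21, as did 40 of 40 nuclear genes of oxidative phosphorylation (-0.16), 21 of 21 of the tricarboxylic acid cycle (-0.17), 13 of 13 messenger RNAs of the mitochondrial genome (-0.17) and 22 of 22 genes of branched-chain amino acid and ketone catabolism (-0.17). With the same total per library 29, 40, 21, 13 and 18 of these still fell, and none rose. Cpt2, the inner-membrane carnitine palmitoyltransferase, had a median of 1053 and a range of 883 to 1845 in IRS1KO TAC libraries, a median of 1195 and a range of 888 to 2438 in IRS2KO, and 2375, 1663, 1361, 1773 and 1397 in WT, against 2514 to 3417 in sham. Every TAC library lay below every sham library, and in each genotype the library of lowest score had the highest value. Its slope was -0.23 ± 0.02 (limma, adjusted p = 8.91e-08), a fall to 0.35 of the starting level over the range of the score.

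Ucp3, the muscle uncoupling protein, had a steeper slope of -0.58 ± 0.08 (adjusted p = 3.54e-05), with 79.8 to 828 in IRS1KO, 36.6 to 1067 in IRS2KO, and 1416, 931, 449, 748 and 576 in WT TAC libraries, against 999 to 2316 in sham. Acsl1, the acyl-CoA synthetase of heart muscle, had -0.32 ± 0.03, Ndufs1, a subunit of complex I, -0.19 ± 0.02, Pdk2, a pyruvate dehydrogenase kinase, -0.18 ± 0.02, mt-Nd5, a complex I subunit of the mitochondrial genome, -0.19 ± 0.02 and Ppm1k, the phosphatase that activates branched-chain ketoacid dehydrogenase, -0.28 ± 0.03 (adjusted p of at most 8.91e-06). Of these lists 7, 0, 1, 1 and 6 members fell without the 4 lowest libraries, in the order of the lists above, and none rose. The median slopes without those libraries were -0.13, -0.11, -0.10, -0.11 and -0.11. Among 22 regulators of mitochondria and metabolism 19 fell, with Lpin1, a phosphatidate phosphatase and coactivator, at -0.29 ± 0.03 and Esrrg, an orphan nuclear receptor, at -0.21 ± 0.02 (adjusted p of at most 8.67e-07), and Nrf1 rose by 0.06.

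Of 26 genes of glycolysis and glucose transport 7 rose and 11 fell, against 27.5% and 24.9% of all tested genes, with a median slope of -0.02. With the same total per library 12 rose and 8 fell, and the median was 0.04. Pfkm, the muscle phosphofructokinase, fell by 0.26 ± 0.02 and Eno3, the muscle enolase, by 0.26 ± 0.02 per unit (adjusted p of at most 1.9e-07). Slc16a3, the lactate exporter MCT4, had 110.0 to 356 in IRS1KO, 40.7 to 345 in IRS2KO, and 48.0, 112, 228, 194 and 319 in WT TAC libraries, against 13.3 to 35.5 in sham, and rose by 0.49 ± 0.03 (limma, adjusted p = 4.33e-09). Every TAC library exceeded every sham library, by least in the libraries of lowest score.

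Of 33 genes of insulin and IGF signalling, the pathway of the deleted Irs genes, 14 fell and 4 rose, against 24.9% and 27.5% of all tested genes. Scaled to the same total per library, 6 fell and 10 rose. Grb14, an adaptor that inhibits the insulin receptor, had 639.8 to 1227 in IRS1KO, 643 to 1791 in IRS2KO, and 1656, 1147, 1181, 1257 and 899 in WT TAC libraries, against 1481 to 2470 in sham. Only the libraries of lowest score in IRS2KO and WT lay inside the sham range. Its slope was -0.21 ± 0.02 (limma, adjusted p = 1.24e-06), that of Insr, the insulin receptor, -0.15 ± 0.02 (adjusted p = 5.37e-05) and that of Pik3r1, a regulatory subunit of phosphoinositide 3-kinase, -0.20 ± 0.05 (adjusted p = 0.00634). The 4 rising members, Igf1r, Igf2r, Igfbp7 and Pik3cb, had slopes of at most 0.08, and Igf1, the ligand, had 0.08 ± 0.04 (adjusted p = 0.0959) beside a TAC minus sham difference of 1.93.

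Endothelial markers fell in 14 of 19 cases, with a median slope of -0.09. Kdr, the VEGF receptor 2, had -0.22 ± 0.03 and Tie1, a receptor of the angiopoietin system, -0.14 ± 0.02 (limma, adjusted p of at most 3.72e-06). The sum of 4 defining markers (Pecam1, Cdh5, Kdr and Tie1) ran from 5429 to 9590 in TAC and from 9304 to 10673 in sham, and none of the 19 fell without the 4 lowest libraries. Plvap, the diaphragm protein of fenestrated endothelium, rose by 0.33 ± 0.05 (adjusted p = 2.42e-05), with 169.6 to 417 in IRS1KO, 71.3 to 296 in IRS2KO, and 75.8, 170.3, 304, 207 and 220.0 in WT TAC libraries, against 38.8 to 126 in sham. With the same total per library 6 endothelial markers fell and 2 rose.

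Markers of blood moved with the score too. The sum of Hba-a1, Hbb-bs and Alas2 ran from 913 to 3455 in TAC and from 2601 to 6512 in sham libraries, and all 3 fell with the score, Hbb-bs by 0.18 ± 0.06 per unit (adjusted p = 0.0138), but 0 of 7 erythroid markers fell with the same total per library. Adipocyte markers were at or near 0, with a sum of at most 6.72 over 3 genes in TAC libraries, and atrial Myl7, Sln and Bmp10 were each at most 3.61. Tnnt3, the fast skeletal troponin T, rose by 0.48 ± 0.07 (adjusted p = 2.28e-05) while Actn3, another gene of fast skeletal muscle, was at most 3.10. The part of blood in the results was not tested.

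Of 18 genes of the circadian clock and its output 9 fell and 4 rose, against 24.9% and 27.5% of all tested genes, with a median slope of -0.08. With the same total per library 7 fell and 6 rose, and the median was -0.02. Hlf, an output transcription factor of the clock, had -0.36 ± 0.04 and Nr1d2, a nuclear receptor of the clock, -0.18 ± 0.02 (limma, adjusted p of at most 1.32e-06), whereas Per2, a core repressor, was lower in TAC than in sham by 0.66 and had a slope of -0.03 ± 0.06 (adjusted p = 0.703). The labels used here give no time of day of sampling.

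The steepest fall of any named gene outside the score was that of Efnb3, ephrin B3, a membrane-bound ligand of Eph receptors. It had a median of 58.8 and a range of 29.2 to 338 in IRS1KO TAC libraries, a median of 200.2 and a range of 36.7 to 922 in IRS2KO, and 810.1, 320.5, 244, 452 and 235 in WT, against 541 to 1644 in sham. The lowest-scoring IRS2KO and WT libraries lay inside the sham range, while IRS1KO TAC replicates 2, 4 and 6 held 29.2 to 35.6. Its slope was -0.65 ± 0.07 (limma, adjusted p = 2.09e-06), and -0.53 without the 4 lowest libraries (adjusted p = 0.0105). Lrtm1, a leucine-rich membrane protein, had -0.54 ± 0.06 (adjusted p = 2.09e-06).

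**Figure D4:**
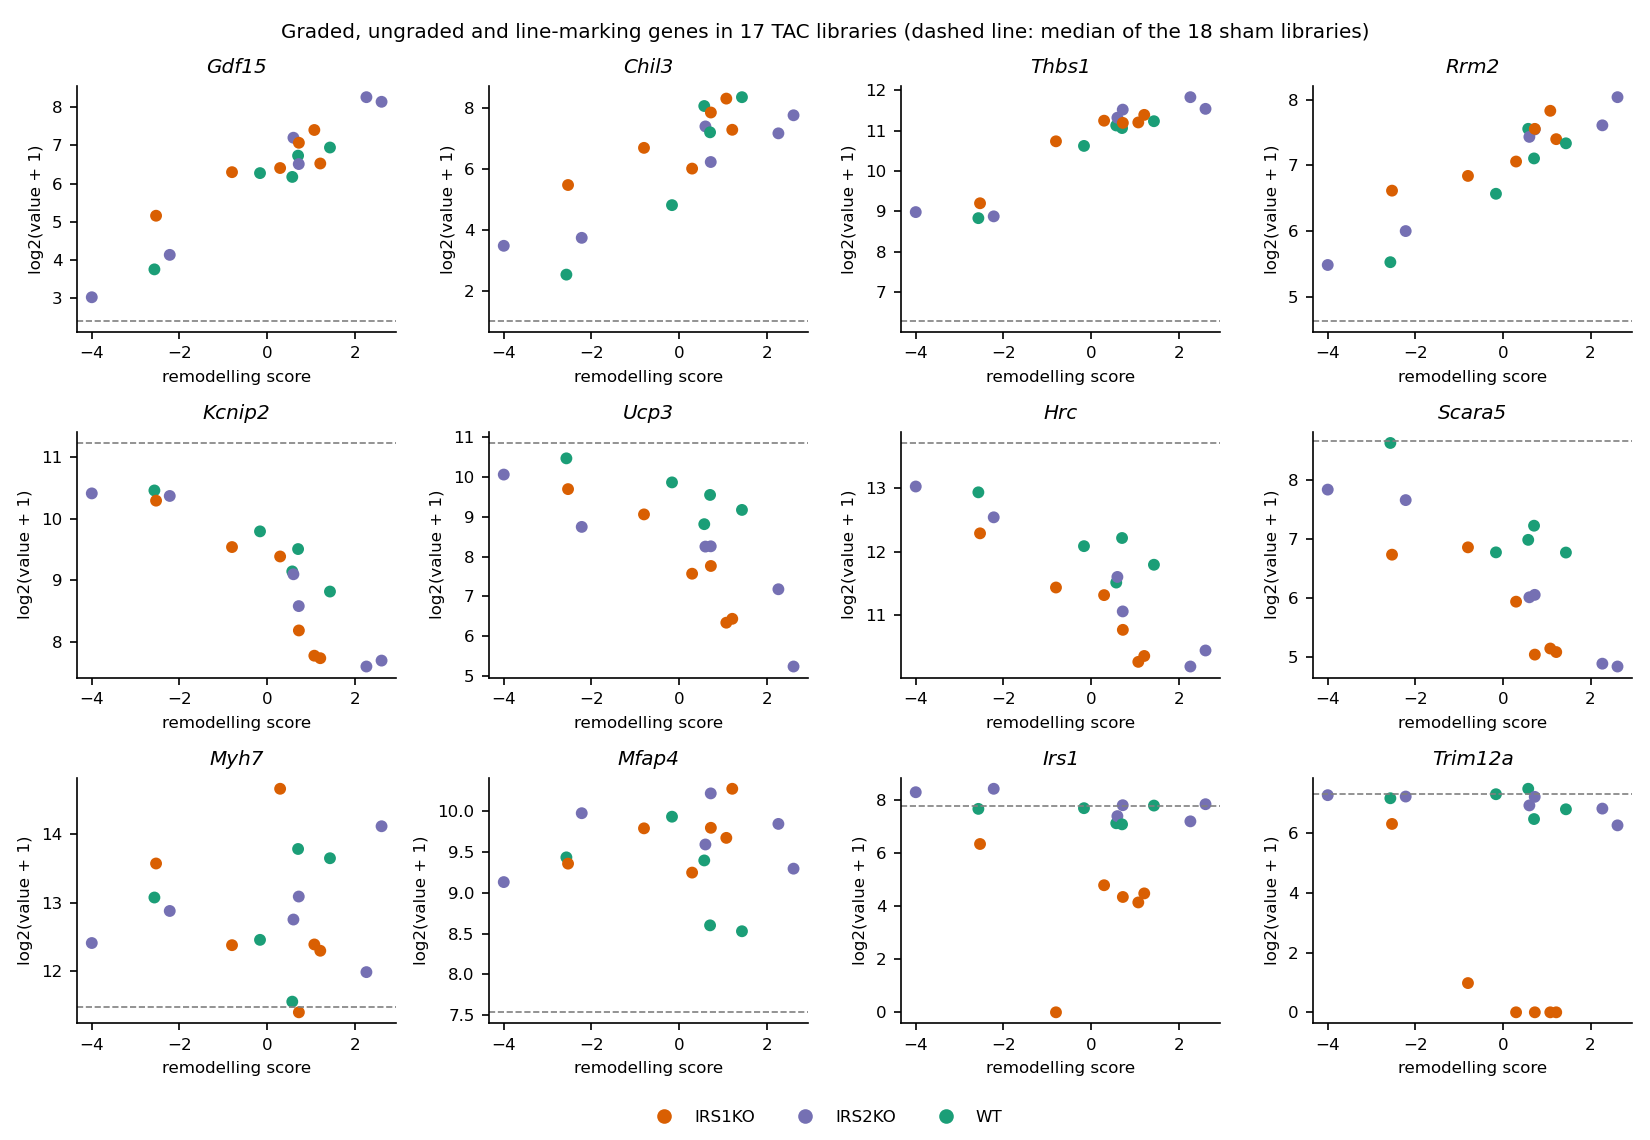
Log2(value + 1) of 12 genes against the remodelling score, 1 point for each of 17 TAC libraries, coloured by genotype, with the median of 18 sham libraries as a dashed line. Gdf15 rises by 0.76 and Kcnip2 falls by 0.49 per unit of score, and Myh7 and Mfap4 show no trend over the 17 libraries together. Irs1 and Trim12a separate the IRS1KO libraries, in which replicate 5 is highest.

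Averaged over genotypes, 5221 genes were higher (38.1%) and 5361 lower (39.1%) in TAC than in sham hearts (limma, 13695 genes). Of 5217 tested genes higher after TAC, 3471 rose with the score and 30 fell. Of 5359 tested genes lower after TAC, 3161 fell with the score and 12 rose. The slope did not pass for 1716 of the genes higher and 2186 of those lower after TAC. The same TAC libraries enter both fits, so these counts are a description.

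**Figure D5:**
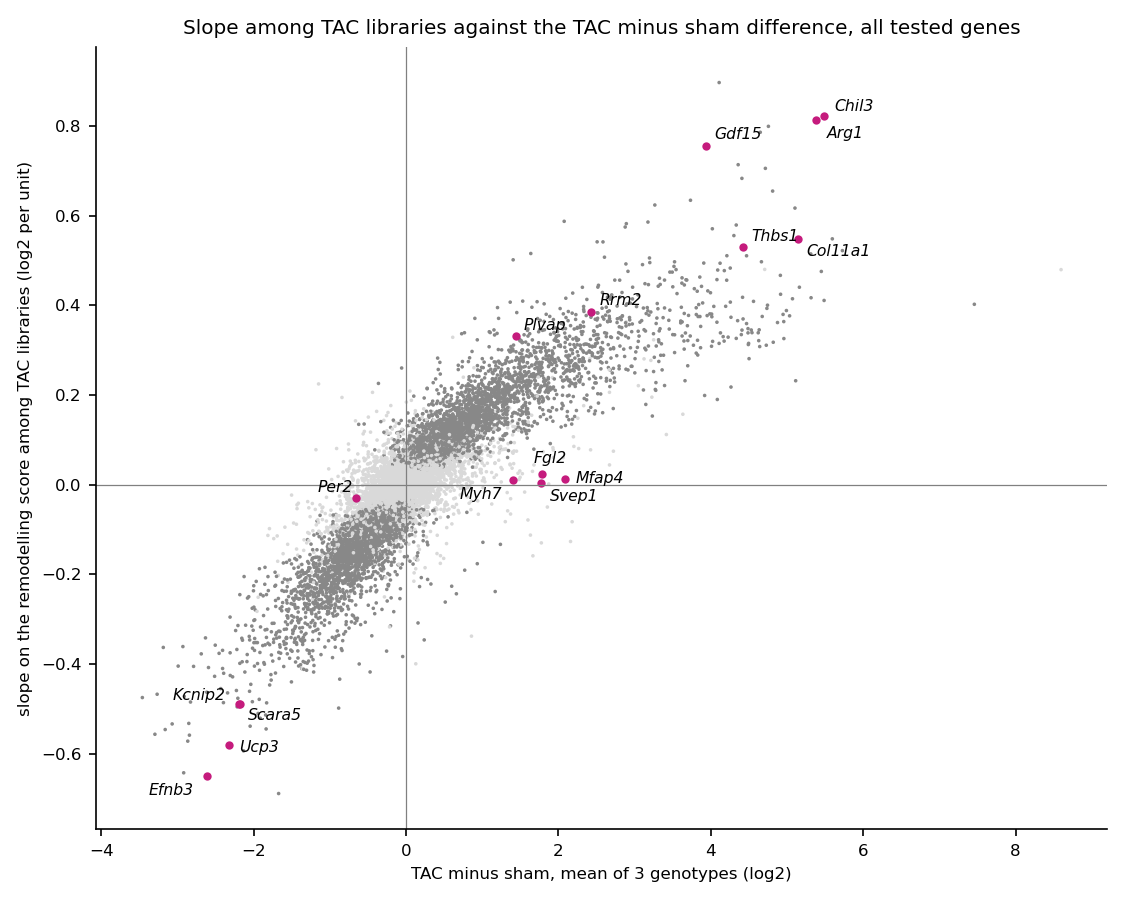
Slope on the remodelling score among TAC libraries (log2 per unit) against the TAC minus sham difference (log2, mean of 3 genotypes) for 13689 genes, dark where the slope passed. Chil3, Arg1 and Gdf15 lie at the top right and Efnb3 at the bottom left, while Mfap4, Svep1, Fgl2 and Myh7 lie on the zero line of the slope despite TAC minus sham differences of 1.41 to 2.08.

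Slopes rarely differed between genotypes past the threshold. For IRS1KO minus WT, 1 of 13689 genes passed (0.00731%, limma, 927 at an unadjusted p under 0.05), for IRS2KO minus WT 0 (0.0%, 697 unadjusted) and for IRS1KO minus IRS2KO 3 (0.0219%, 332 unadjusted). Aldh1a2, the retinoic acid-forming enzyme of fibroblasts and epicardium, had 510.5 to 1028 in IRS1KO, 253 to 1234 in IRS2KO, and 138, 707, 721, 1022 and 1421 in WT TAC libraries, against 21.3 to 61.0 in sham. The lowest WT library was the lowest of all TAC libraries. Its slope was 0.20 in IRS1KO and 0.83 in WT, a difference of -0.63 ± 0.09 (adjusted p = 0.028).

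Stbd1, a glycogen-binding protein, had 119 to 629 in IRS1KO, 135 to 505 in IRS2KO, and 166, 235, 302, 281 and 296 in WT TAC libraries, against 38.8 to 112 in sham. Its slope was 0.61 in IRS1KO and 0.30 in IRS2KO, a difference of 0.31 ± 0.05 (limma, adjusted p = 0.0433). Trim12a, with a difference of -1.51 ± 0.23 (adjusted p = 0.0433), and Pdzd3, with 0.93 ± 0.13 (adjusted p = 0.022), passed in the same contrast. IRS1KO TAC replicate 5, the library of lowest score in its genotype, had 78.3 for Trim12a and 5.95 for Pdzd3, against 0 to 0.971 and 29.1 to 63.8 in the other 5 IRS1KO TAC libraries. Without that library, 3 genes passed in IRS1KO minus WT, 0 in IRS2KO minus WT and 2 in IRS1KO minus IRS2KO. With library weights 1428, 1669 and 0 genes passed in the 3 contrasts.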

How the data were processed

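Poly(A) RNA of the heart apex was sequenced with a strand-specific library kit, per the labels' protocols. HISAT2 2.0.6, HTSeq 0.7.1, DESeq2 and the build GRCm38 are named, with no role or order, in the submitters' processing notes. The deposited signal is a gene-level read count divided by a size factor of each library; that the divisor is a size factor was read from the values. Whole reads were recovered for 100% of values in every library (tolerance 0.001), between 11707111 and 14609467 per library, and served the count tests tried as alternatives. Of 27012 genes, 26904 (99.6%) matched GENCODE vM21, which gave coordinates and names. The number of libraries, not the depth, limits the precision for all but low genes.

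The score and all slopes were computed on log2(value + 1) for genes with a mean of at least 10 (limma 3.58.1, trend and robust options, in R 4.3.3; Benjamini-Hochberg adjustment over all genes tested). TAC against sham and genotype contrasts came from a fit of 6 group means over 35 libraries. Slope differences came from a fit with a slope for each genotype, and sham libraries had a fit and score of their own. Slopes of the score's own genes carry no test. Library measures were tested by 100000 permutations within genotype (Python 3.11.15, numpy 2.4.6, scipy 1.17.1). The alternatives were other pseudocounts, filters, scalings, scores, library weights, a replicate block, edgeR 4.0.16 and DESeq2 1.42.0 on recovered reads, and libraries left out. The fits were also run on simulated data, in which the score was drawn at random and genes, apart from planted effects, varied independently. In the real data the score came from genes of the same libraries and many genes moved together, a case that the simulation does not cover.

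The score genes, gene lists and tests were chosen with earlier results of these data known, so a list's count is no independent evidence. Genes were named by fixed rules: the 15 largest slopes and 10 smallest p in each direction, up to 4 called members of each of 43 lists, the largest TAC responses with an adjusted slope p over 0.5, the widest scatter and the slope differences. Exceptions to a list and cell type markers were named after their values were seen. Some genes are not reported here. None of 85 replicate pairs looked like 1 library deposited again (chi-square over its degrees of freedom at least 2.54).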

Additional observations from a re-analysis of the deposited data

Results flagged for a closer look

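A single library stood far from the rest of its group, by Dixon's criterion at the 95% level, in 24 of 411 groups of values tested (5.84%), where chance gives about 1 in 20. Most of these were WT TAC replicate 2, the WT library of lowest score. Its values were 12.5 for Gdf15, 2577 for Rtn4, 454 for Thbs1, 1992 for Ccn2, 4248 for Msn, 17.3 for Aurka, 3.84 for Lif, 26.9 for Clcf1, 40.3 for Mthfd2 and 271 for Tgfb2, each below the other 4 WT TAC libraries. It had 394 for Scara5, 696 for Kcnj2, 4103 for Abcc9 and 3645 for Timp3, each above them. All 14 moved in the direction of sham. Of the genes screened, apart from the 6 score genes, 101 passed on the score and 25 did not. A library of low score tends to lie toward sham in such genes by selection, so count and direction are a description.

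IRS1KO TAC replicate 5, which has the lowest score of its genotype, was low for Thbs1 (587), Ccn2 (2818) and Pdzd3 (5.95) and high for Trim12a (78.3). IRS1KO TAC replicate 1 was listed at 0 for Irs1 and was apart for Ccnd1 (238). In IRS2KO TAC hearts, Hspb7 in replicate 2 (68796), Mt1 in replicate 6 (986), Nrf1 in replicate 4 (111) and Tcf21 in replicate 1 (151) stood apart.

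Slopes on the score differed between genotypes for 4 genes (limma, adjusted p under 0.05). The difference was -0.63 for Aldh1a2 in IRS1KO minus WT, and 0.93 for Pdzd3, 0.31 for Stbd1 and -1.51 for Trim12a in IRS1KO minus IRS2KO.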

How the results depend on the processing

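Scaling every library to the same total gave 6699 rising and 1683 falling genes on the score, and 8405 higher and 2595 lower genes in TAC against sham. Without the 4 libraries of lowest score, an alternative added after seeing the data, 272 rose and 395 fell, and Nppa had a slope of -0.056. The score genes passing in IRS2KO minus WT then numbered 3, but those libraries were left out by the values of these same genes, so that count is no test. Leaving out 1 library at a time gave 3148 to 3806 rising and 2917 to 3450 falling genes, 5130 to 5272 higher and 5301 to 5420 lower genes in TAC against sham, and 0 in sham hearts and in the genotype contrasts of score genes.

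Counts of slope differences were unstable. For IRS1KO minus WT they were 4 with a pseudocount of 0.5, 3 with no filter, 0 with the same total, 1428 with library weights, 0 with the replicate block, 3 without the 4 lowest libraries, 3 in edgeR, and 0 to 9 with 1 library left out, 9 without IRS1KO TAC replicate 1. For IRS2KO minus WT they were 2 with no filter, 1669 with library weights, 1 in edgeR and 0 to 2 with 1 library left out. For IRS1KO minus IRS2KO they were 7 with no filter, 0 with quantile normalization, library weights, the replicate block or without the 2 farthest libraries, 1 without the 4 lowest, 5 in edgeR and 0 to 3 with 1 library left out. The cause was not tested.

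The r of genes detected with the score was 0.57 without Tnc in the score, 0.56 without Sprr1a, 0.54 without Atp2a2, 0.59 with the 4 raised genes, 0.52 without the 2 farthest libraries, 0.30 without the 4 lowest, and 0.53 to 0.70 with 1 library left out. That of response size stayed between 0.94 and 0.97 and that of mitochondrial share between -0.93 and -0.88 with 1 library left out.

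An r over 0.1 was found in 6 of 16 same-number pairs of TAC libraries (median -0.06). Of 80 pairs of different numbers, 37 had one (median 0.009). By this measure the replicate numbers did not pair the libraries, and whether same-number libraries shared a batch was not tested. With the replicate block 3542 genes rose and 3221 fell. Of 101 printed genes that passed, 94 passed with the block, 90 with the same total and 46 without the 4 lowest libraries, where 54 no longer passed and 1 reversed. The sham score could not be computed with quantile normalization, because Atp2a2 had the same rank in every sham library. With 17 libraries and a long low tail, slopes rest strongly on 4 libraries.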
